A study of Mus musculus with 4 samples.

Results

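RNA abundance in brain was compared between 2 pairs of mouse libraries, B6 with F1r on one side and CAST with F1i on the other, because the members of each pair were alike in the RNA made from mitochondrial DNA. B6 was the C57BL/6 laboratory strain and CAST was CAST/EiJ, a strain derived from wild Mus musculus castaneus. F1i was the hybrid written C57BL/6 x CAST/EiJ and F1r the hybrid written CAST/EiJ x C57BL/6; the labels do not state which parent was the dam. All animals were wild type, and neither age nor sex is given in the sources used here. Each library was total RNA pooled from the left brain hemispheres of 5 mice, whereas the series design speaks of whole brain, so n = 1 pool in each of the 4 groups and all 4 libraries of the series were used. Of 45215 genes in the tables, 8867 had a mean of at least 5 FPKM (fragments scaled to transcript length and library size) and lay on chromosomes 1 to 19 (8853 genes) or on the mitochondrial DNA (14 genes). Of these 8867, 28 (0.316%) had both libraries of one side at least 1.5-fold beyond both libraries of the other.

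The mitochondrial DNA is a small circular genome outside the nucleus, inherited through the mother, that encodes core subunits of the respiratory chain and of ATP synthase together with the ribosomal RNAs and transfer RNAs of the organelle. Its transcripts are made as long precursors from both strands and are then cut into the separate RNAs. Over evolution, pieces of mitochondrial DNA have been inserted into the chromosomes, where they are annotated as pseudogenes, and short reads from a recent insertion and from the organelle can be the same. Reciprocal F1 hybrids carry the same pair of autosomal sets but differ in the mitochondrial DNA and, in males, in the X chromosome, and imprinted genes are read from opposite parental copies.

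The sequences below are the first 120 bases of 3 mitochondrial genes and of nuclear copies of them, shown because they span a copy with no difference, copies with few differences and a more diverged one. They were read from the GENCODE M21 transcripts of GRCm38, the C57BL/6J reference genome, and run 5′ to 3′; capitals mark bases of the copy that differ from the mitochondrial gene, and none of them was read from these mice.
mt-Co2: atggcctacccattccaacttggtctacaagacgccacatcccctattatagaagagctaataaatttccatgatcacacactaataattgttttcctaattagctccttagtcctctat
Gm28661: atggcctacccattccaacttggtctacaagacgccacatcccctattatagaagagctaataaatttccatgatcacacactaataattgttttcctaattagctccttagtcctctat
Gm13341: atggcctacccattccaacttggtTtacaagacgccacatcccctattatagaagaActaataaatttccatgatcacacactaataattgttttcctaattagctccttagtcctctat
mt-Co1: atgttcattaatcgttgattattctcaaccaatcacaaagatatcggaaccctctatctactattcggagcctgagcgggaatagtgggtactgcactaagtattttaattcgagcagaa
Gm13340: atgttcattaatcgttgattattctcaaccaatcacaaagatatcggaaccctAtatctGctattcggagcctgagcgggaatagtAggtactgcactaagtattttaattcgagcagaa
mt-Cytb: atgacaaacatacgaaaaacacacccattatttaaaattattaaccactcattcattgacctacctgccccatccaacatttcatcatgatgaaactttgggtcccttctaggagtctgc
Gm11410: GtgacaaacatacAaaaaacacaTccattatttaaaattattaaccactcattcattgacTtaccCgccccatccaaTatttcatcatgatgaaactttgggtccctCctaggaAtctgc

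The stretch of mt-Co2, a subunit of cytochrome c oxidase, lies at chrMT:7013-7132 on the plus strand. Gm28661, on the minus strand at chr1:24615446-24615565, had no base different from it in this stretch, and over 681 aligned bases it had 0 differences. Gm13341, on the minus strand at chr2:22587843-22587962, had 16 differences in 672 aligned bases, so that it was 97.62% identical. The stretch of mt-Co1, the catalytic subunit of the same enzyme, lies at chrMT:5328-5447, and its copy Gm13340 at chr2:22589528-22589647 on the minus strand was 97.61% identical over 1545 bases. The stretch of mt-Cytb, the cytochrome b of complex III, lies at chrMT:14145-14264, and its copy Gm11410 at chr4:80003989-80004108 on the plus strand was the most diverged of the 3 kinds shown, at 92.83%. Among other copies on chromosome 1, Gm10925 had 0 differences from mt-Atp6 over 678 bases, Gm28437 had 0 from mt-Co3 over 783 and Gm28438 had 1 from mt-Nd3 over 345.

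No replicate error could be computed, and no test was run: with 2 libraries against 2, the smallest two-sided exact permutation p is 0.333. The gap of a gene is therefore given as a description. It is the lowest log2(FPKM + 1) of the higher side minus the highest of the lower side, positive where B6 and F1r were higher; a 1.5-fold gap is 0.58 and a 1.25-fold gap 0.32. Total FPKM ran from 1857428 to 2357188 and did not separate the sides, and neither did depth, which was 0.735 in F1r, 0.725 in CAST and 0.821 in F1i relative to B6 as judged from the worth of 1 fragment in low values. The tables hold no counts, so values carry no counting interval. Defining markers of brain were present: 15 of 17 neuron markers, 11 of 12 astrocyte markers and 16 of 18 myelin and oligodendrocyte markers reached a mean of 5 FPKM, with Snap25, a synaptic fusion protein of neurons, between 499 and 635 FPKM. None of the 16 lists of cell type and brain region markers had a summed level that separated the sides. Sums still differed between libraries, also within a side. Myelin and oligodendrocyte markers summed to 2051 FPKM in B6, 1556 in F1r, 1243 in CAST and 1713 in F1i. Microglia markers summed to 245, 179, 169 and 202 FPKM and neuron markers to 2246, 2330, 2144 and 2269 FPKM, in the same order.

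A gap of any size was found at 1424 genes with B6 and F1r higher (16.1% of the 8867) and at 1253 with B6 and F1r lower (14.1%). Rescaling the libraries to a common total over chromosomes 1 to 19 left 1304 higher and 592 lower, and the higher share of all such genes was 53.2% as deposited and 68.8% after rescaling. Median-ratio scaling gave 1269 higher and 1378 lower, a higher share of 47.9%, so that the direction with more genes depended on the scaling. The medians over all genes were -0.03 for B6 minus CAST and 0.03 for F1r minus F1i as deposited, and -0.21 and 0.16 after rescaling to a common total. A gap of at least 1.5-fold was found at 7 genes with B6 and F1r higher (0.0789%) and 21 with B6 and F1r lower (0.237%), and one of at least 1.25-fold, a threshold chosen after the data were seen, at 27 (0.304%) and 49 (0.553%). On chromosomes 1 to 19 alone it was found at 3 genes higher (0.0339%) and 17 lower (0.192%). Just inside this threshold were Hist1h3h, a histone gene, at 0.61 (0.58 after median-ratio scaling, which is under it) and the pseudogene Gm6304 at -0.68, and just outside were Ddit4 at 0.56 and Gm42730 at 0.56. The level filter used the mean over all 4 libraries, so genes in either direction could pass it through a single side. Of the genes past 1.5-fold on chromosomes 1 to 19, all 3 higher ones passed only through B6 and F1r. Rnu3b4 and Hist1h3h averaged 0.026 and 3.71 FPKM in CAST and F1i. The lower genes there that passed only through CAST and F1i were Gm13341, Gm4076, Gm11410, Gm15453, Rps4x-ps, Gm13680, Gm10156, Gm6304, AC155256.1 and another Rnu3b4 record. Gm11410 had a mean of 0.018 FPKM in B6 and F1r and 10.9 in CAST and F1i. For Gm44126 these means were 7.90 and 3.35 FPKM.

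Of 8421 protein-coding genes compared, 9 were among the 28, and 8 of these were mitochondrially encoded; the ninth, Hist1h3h, had 94.2% of its 31-base words in other genes. Of only 10 unprocessed pseudogenes compared, 6 had a 1.5-fold gap, and each of the 6 was a nuclear copy of mitochondrial sequence. Of 241 processed pseudogenes, 1 was higher and 8 were lower in B6 and F1r. Among 7028 protein-coding genes of chromosomes 1 to 19 that shared under 5% of their 31-base words with any other gene, 0 had a 1.5-fold gap in either direction (0%); at 1.25-fold, 8 were higher (0.114%) and 14 lower (0.199%).

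**Figure D1:**
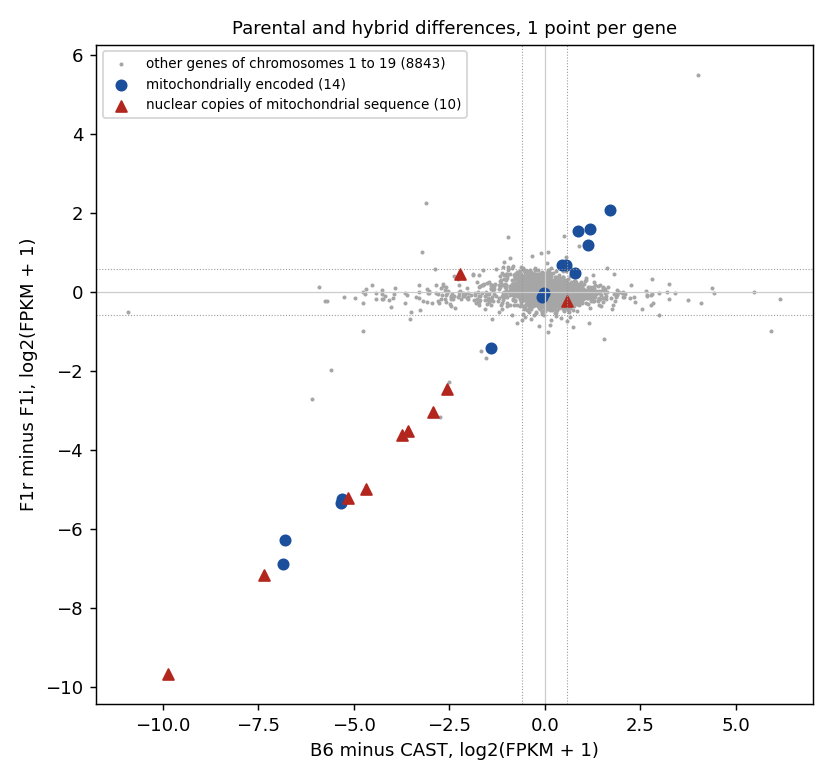
Difference between the parental libraries (B6 minus CAST, horizontal axis) and between the hybrid libraries (F1r minus F1i, vertical axis) on the log2(FPKM + 1) scale, 1 point per gene of the 8867 compared; dotted lines mark 1.5-fold. The 14 mitochondrially encoded genes (circles) and 8 of the 10 nuclear copies (triangles) run along 1 diagonal, whereas the other genes spread mainly along the parental axis.

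The parental pair and the hybrid pair share no library and can be set beside each other. B6 and CAST were at least 1.5-fold apart at 809 genes (9.12%), F1r and F1i at 70 (0.789%), and 49 genes were in both lists. Of these 49, 32 went the same way, which is 3.96% of the parental list and 45.7% of the hybrid list, and 17 went opposite ways. The direction differed between parts of the genome. Of the mitochondrially encoded genes, 9 were in both lists and 9 went the same way, and the same held for 8 of 8 nuclear copies. The sides were paired by mitochondrially encoded RNA, and the copies share its sequence, so this agreement is no separate result. These genes are among the 32, so the 45.7% rests partly on them. Of the other genes of chromosomes 1 to 19, 15 went the same way and 17 opposite ways. Across these 8843 genes, which all come from the same 4 libraries, the parental and hybrid differences had a Pearson correlation of -0.03 and a Spearman correlation of -0.26, a description across genes that are not independent.

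The mitochondrially encoded genes chose the sides, so their values are a description. The 2 ribosomal RNAs, the scaffolds of the mitochondrial ribosome, differed little: mt-Rnr2 was listed at 31991 FPKM in B6, 32134 in F1r, 33669 in CAST and 35164 in F1i, a gap of -0.07 with B6 and F1r lower, and mt-Rnr1 overlapped between the sides. Of the 12 protein genes compared, 7 were higher in B6 and F1r and 5 lower, and 4 in each direction had a 1.5-fold gap. The thirteenth, mt-Nd4l, a small complex I subunit, was below the level filter and was listed at 0.314, 2.37, 8.15 and 7.92 FPKM in B6, F1r, CAST and F1i.

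Among the complex I subunits, mt-Nd1 had the largest positive gap of the mitochondrial genes. It was listed at 1853 FPKM in B6 and 1914 in F1r against 563 in CAST and 455 in F1i, a gap of 1.72, and it held 0% of its words in common with any other annotated gene. mt-Nd2 was listed at 373, 431, 204 and 146 FPKM in B6, F1r, CAST and F1i, a gap of 0.87. In both genes the libraries of a side lay closer to each other than to the other side, though CAST and F1i themselves differed at mt-Nd2. Smaller gaps in the same direction were found at mt-Nd4 (0.45), mt-Nd5 (0.43) and mt-Nd6 (0.38), the last of which lies on the other strand and overlaps mt-Nd5.

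The other complex I subunit, mt-Nd3 (chrMT:9459-9806), went the opposite way. It was listed at 10.3 FPKM in B6 and 9.70 in F1r against 1298 in CAST and 1254 in F1i, a gap of -6.79. The cytochrome c oxidase subunits differed among themselves. mt-Co1 was listed at 6837, 6657, 3131 and 2931 FPKM in B6, F1r, CAST and F1i, a gap of 1.09, whereas mt-Co2 was listed at 24.8, 25.1, 1025 and 989 FPKM, a gap of -5.25. mt-Co3 (chrMT:8607-9390) was listed at 17.7 and 20.8 FPKM in B6 and F1r against 2091 and 1693 in CAST and F1i, a gap of -6.28. So of 3 subunits of 1 enzyme, 1 was higher and 2 were lower in B6 and F1r.

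mt-Cytb was listed at 1450 and 1711 FPKM in B6 and F1r and at 638 and 566 in CAST and F1i, a gap of 1.18. Of the ATP synthase subunits, mt-Atp6 (chrMT:7927-8607) was listed at 4.31 and 3.43 FPKM in B6 and F1r against 211 and 179 in CAST and F1i. Its mean in B6 and F1r was 3.87 FPKM, so it passed the level filter only through CAST and F1i. mt-Atp8, whose gene overlaps that of mt-Atp6, was listed at 9.97, 4.69, 28.0 and 14.2 FPKM in B6, F1r, CAST and F1i, a gap of -0.47. Along the mitochondrial DNA, the 6 protein genes that were lower in B6 and F1r were neighbours, from mt-Co2 through mt-Atp8, mt-Atp6, mt-Co3 and mt-Nd3 to mt-Nd4l.

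**Figure D2:**
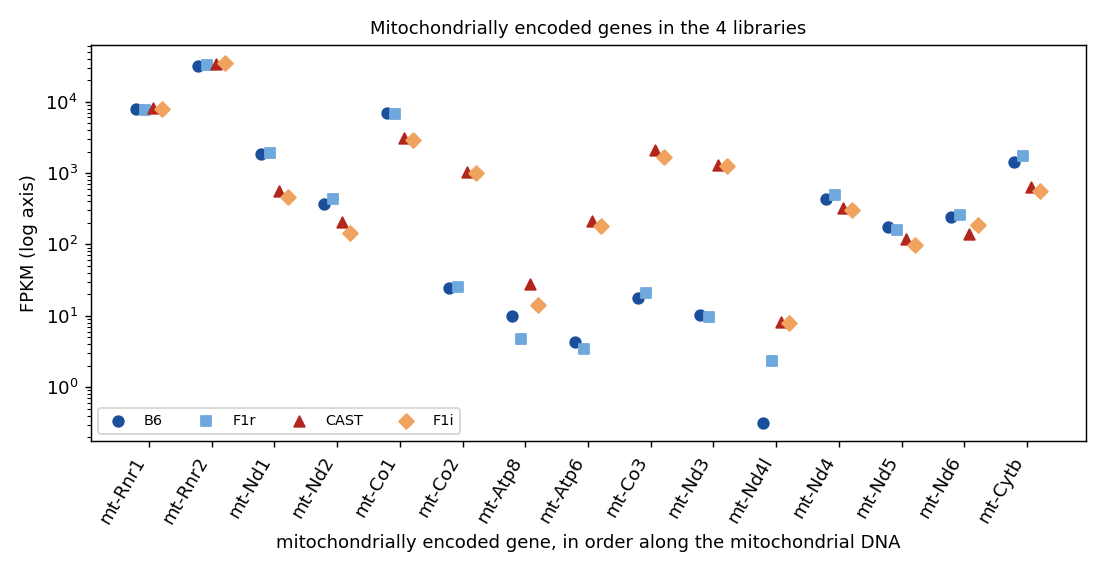
FPKM on a log axis of the 15 mitochondrially encoded genes, in their order along the mitochondrial DNA, with 1 symbol per library. B6 and F1r sit below CAST and F1i in the run of 6 protein genes from mt-Co2 to mt-Nd4l and above them in the 7 other protein genes.

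This run overlapped in large part with the mitochondrial sequence that has a near-identical copy on chromosome 1 of the reference, which also reaches into mt-Co1 and mt-Nd4 outside the run. Between 98.1% and 100% of the 31-base words of mt-Co2, mt-Atp6, mt-Co3, mt-Nd3 and mt-Nd4l were found in the copies there, 7.47% of those of mt-Atp8, 62.8% of those of mt-Nd4 and 29.6% of those of mt-Co1. The other 5 protein genes had 0%. Over the 13 protein genes, which share their libraries and their precursor RNAs, the share of words on chromosome 1 and the mean difference between the sides had a Spearman correlation of -0.85, and the share on chromosome 2 one of 0.14. Both are descriptions of the values that chose the sides.

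The nuclear copies were themselves among the genes with the largest gaps. The tables held 19 of them; 10 reached a mean of 5 FPKM, of which 8 had a 1.5-fold gap, all with B6 and F1r lower, and 9 lay below the filter. Gm13341, Gm4076 and Gm11410 reached that mean only through CAST and F1i. The 3 copies side by side on chromosome 2 gave the widest gaps. Gm13341 (chr2:22587291-22587962), the copy of mt-Co2, was listed at 1.41 FPKM in B6 and 1.56 in F1r against 2241 in CAST and 2087 in F1i, a gap of -9.67. Gm13340 (chr2:22588103-22589647), the copy of mt-Co1, was listed at 19.35 and 20.96 FPKM against 3301 and 3131, a gap of -7.16. Gm13339 (chr2:22590024-22590533), which holds part of mt-Nd2, was listed at 7.05 and 5.49 FPKM against 284 and 239. In each of these, F1i stood with CAST and F1r with B6, and neither hybrid lay near the middle.

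Other copies were listed as follows. Gm4076 on chromosome 13, with words of mt-Nd5, was listed at 0.486 and 0.332 FPKM in B6 and F1r against 36.9 and 41.0 in CAST and F1i. Gm11410 was listed at 0 and 0.0362 FPKM in B6 and F1r against 10.97 and 10.88 in CAST and F1i. The chromosome 1 copies of mt-Co2, Gm28661, and of part of mt-Co1, Gm29216, were listed at 11.4 and 34.3 FPKM in B6, 12.5 and 30.8 in F1r, 165 and 264 in CAST, and 166 and 260 in F1i. Not every copy separated the sides. Gm28437, the copy of mt-Co3, was listed at 41.9, 230, 198 and 169 FPKM in B6, F1r, CAST and F1i, and Gm28438, the copy of mt-Nd3, at 9.05, 6.47, 5.66 and 7.82 FPKM, so that their sides overlapped.

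Because reads of near-identical sequences cannot be told apart, each gene was also added to its copies as FPKM times length in kilobases, a measure of its share of all fragments. Copies that held at least 5% of the gene's words were added, so some shared only part of them. Gm13339 held 13.5% of the words of mt-Nd2, Gm11410 6.55% of those of mt-Cytb and Gm13340 45.2% of those of mt-Co1. Outside the words shared in the reference, reads may be told apart. For mt-Co1 with Gm13340 and Gm29216 the sums were 10610 in B6, 10332 in F1r, 10067 in CAST and 9495 in F1i, and the gap was 0.04 in place of 1.09. For mt-Nd2 with Gm13339 the gap was 0.13 in place of 0.87. For mt-Co2 with both of its copies the sums were 25.7, 26.7, 2319 and 2192, and the gap was -6.31, so that adding the copies widened it. On the same scale the gap narrowed at mt-Co3 (-6.26 to -2.89), mt-Atp6 (-4.96 to -4.06), mt-Nd3 (-6.58 to -5.83) and mt-Nd4l (-0.98 to -0.76). At mt-Atp8 the gap widened from -0.36 to -1.90. The gap of mt-Nd1, which has no copy to add, stayed at 1.72, and that of mt-Cytb with Gm11410 was 1.16.

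Summed over all 13 protein genes, B6 and F1r stood at 15470 and 15659 on this scale and CAST and F1i at 9992 and 9025. The 19 copies together stood at 103 and 250 in B6 and F1r and at 7223 and 6805 in CAST and F1i. Protein genes and copies together stood at 15573, 15909, 17214 and 15830 in B6, F1r, CAST and F1i; F1i lay between B6 and F1r, and the highest library was 1.11 times the lowest. With the 2 ribosomal RNAs added as well, the totals were 73822 and 74137 in B6 and F1r and 78217 and 78938 in CAST and F1i, which separated the sides, at 1.07 times from lowest to highest.

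**Figure D3:**
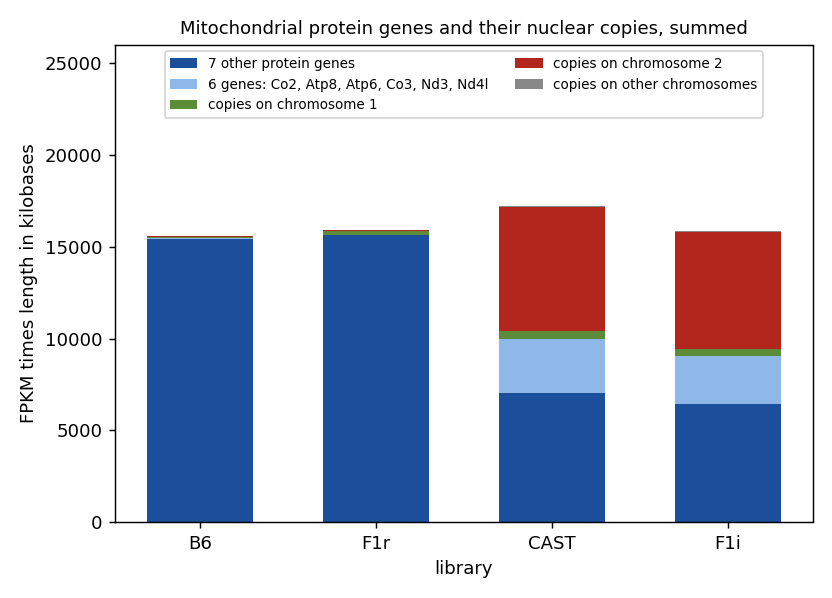
FPKM times length in kilobases summed over mitochondrial protein genes and their nuclear copies, as stacked bars with 1 bar per library. The copies on chromosome 2 account for 6751 in CAST and 6363 in F1i and for 34.4 in B6 and 36.2 in F1r, while the bars differ in height by at most 1.11 times.

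Nuclear genes whose proteins work on the mitochondrial DNA and its RNA showed no gap of 1.5-fold. Of 11 measured genes of mitochondrial DNA upkeep and transcription, 5 had a gap of any size with B6 and F1r higher and 0 with them lower, beside 16.1% and 14.1% of all genes compared. Tfam, which packages mitochondrial DNA and starts its transcription, was listed at 11.8 and 12.4 FPKM in B6 and F1r and at 10.95 and 11.05 in CAST and F1i, a gap of 0.08. Of 33 nuclear-encoded complex I genes, 1 was higher and 5 were lower, and of 76 mitochondrial ribosomal protein genes 13 were higher and 14 lower; the shares of lower complex I genes and of both directions in the ribosomal list were near those 16.1% and 14.1%. Median differences between the sides were 0.07, 0.00 and -0.01 in these 3 lists, beside 0.00 over all genes compared.

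Of the nuclear-encoded respiratory chain genes, Uqcrc1, a core subunit of complex III, had a gap of 1.25-fold. It was listed at 1.59 FPKM in B6, 17.9 in F1r, 40.9 in CAST and 23.6 in F1i. B6 stood far below the other 3 libraries, and F1r and F1i lay close together at a gap of -0.38. Nnt, a mitochondrial enzyme that makes NADPH and a gene with 47.8% of its words in other genes, was listed at 4.002, 5.25, 7.99 and 8.31 FPKM in B6, F1r, CAST and F1i, a gap of -0.52. With a pseudocount of 0.1 it was the only nuclear member of the lists past 1.5-fold, at -0.60. Its mean in B6 and F1r was 4.62 FPKM, so it passed the level filter only through CAST and F1i.

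Among protein-coding genes of chromosomes 1 to 19 that shared under 5% of their words, the 3 largest gaps with B6 and F1r higher were at Ddit4, Arl4d and Sgk1. Ddit4 (chr10:59949669-59951834), an inhibitor of the growth kinase mTORC1, was listed at 39.8 FPKM in B6 and 36.8 in F1r against 23.8 in CAST and 24.6 in F1i, a gap of 0.56. Arl4d (chr11:101665541-101667832), a small GTPase of the ARF-like family, was listed at 22.1 and 20.6 FPKM against 13.99 and 12.94, a gap of 0.53. Sgk1 (chr10:21882184-21999903), a serum- and glucocorticoid-induced kinase, was listed at 74.3 and 66.0 FPKM against 47.0 and 42.0, a gap of 0.48. In all 3, the libraries of a side differed less from each other than the sides did, but the genes were chosen for their gaps. Of this class, B6 and CAST were 1.5-fold apart at 365 genes (5.19%) and F1r and F1i at 15 (0.213%), with 9 in both lists. Sgk1 and Arl4d were the 2 genes that went the same way in both pairs: Sgk1 by 0.65 and 0.64 and Arl4d by 0.62 and 0.63, in the parental and hybrid pair. The 7 others went opposite ways.

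The next genes in the same direction included several regulators. Nfkbia (chr12:55489410-55492647), the inhibitor that holds NF-kB in the cytoplasm, was listed at 17.3 FPKM in both B6 and F1r against 13.2 in CAST and 12.7 in F1i. Txnip (chr3:96557957-96561883), which binds thioredoxin and limits glucose uptake, was listed at 14.3 and 12.8 FPKM against 9.87 and 8.498, and Arrdc3, a related arrestin-domain protein, at 24.8 and 24.7 against 19.3 and 20.5. Crym, a thyroid hormone-binding protein, was listed at 41.6 and 37.5 FPKM against 28.8 and 31.3. These groups did not overlap, with gaps of 0.37, 0.34, 0.26 and 0.25. The rest of the 20 genes named in this direction, with gaps from 0.26 to 0.37, were Zfp236, Fam234b, Adam15, Sec22a, Gtdc1, Trappc9, Rab23, Plxnd1, Prss23, Rprd1b, Tatdn3, Mgat4c and Rnf169. Of these, Adam15 is a membrane metalloprotease, Rab23 a GTPase that restrains Hedgehog signalling and Plxnd1 a semaphorin receptor. Rnf169 and Prss23 had CAST well below F1i: Rnf169 was listed at 15.6, 12.9, 7.63 and 10.6 FPKM in B6, F1r, CAST and F1i. Sec22a and Prss23 averaged 4.26 and 4.84 FPKM in CAST and F1i, so they passed the level filter only through B6 and F1r.

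In the other direction, the largest gap of this class was at Chchd3 (chr6:32790976-33060260), a component of the complex that shapes mitochondrial cristae. It was listed at 24.4 FPKM in B6 and 24.0 in F1r against 35.3 in CAST and 38.1 in F1i, a gap of -0.52. Rarres2, the precursor of the secreted attractant chemerin, was listed at 5.34, 4.44, 8.497 and 7.95 FPKM in B6, F1r, CAST and F1i, a gap of -0.50. The libraries of a side again lay together in both genes, which were likewise chosen for their gaps. Hsd11b1 (chr1:193221634-193264075), which regenerates active glucocorticoid inside cells, was listed at 11.2 and 10.7 FPKM in B6 and F1r against 16.9 and 14.02 in CAST and F1i, a gap of -0.30. Ppp1r15a, which helps to reverse the block of translation after stress, was listed at 5.07 and 5.87 FPKM against 9.07 and 7.61. Others named in this direction were Tmem176a, Uqcrc1, Msantd2, Acy1, Tmem144, Amn1, S100a5, Oxld1, Serf1, Rnf34, Pafah1b3, Slc12a4, Pomt1, Klhl32 and Gpr89, with gaps from -0.43 to -0.29. Rarres2, Msantd2, Acy1, Tmem144, Pomt1 and Klhl32 averaged under 5 FPKM in B6 and F1r and passed the level filter only through CAST and F1i.

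**Figure D4:**
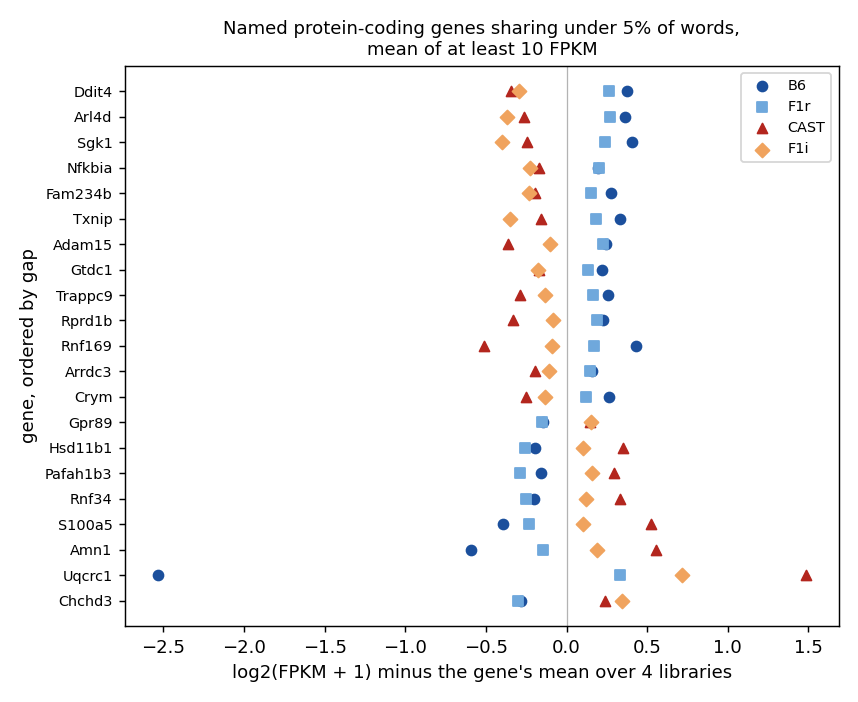
Level of each gene in each library as log2(FPKM + 1) minus the gene's mean over the 4 libraries, for the named protein-coding genes of chromosomes 1 to 19 that share under 5% of their words and have a mean of at least 10 FPKM. The sides do not overlap in any row, since the genes were chosen for that, and in Uqcrc1 B6 stands alone at the low end.

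Genes known to respond to glucocorticoid were described as a list. Of 19 members, 10 were measured; 5 had a gap with B6 and F1r higher (16.1% of all genes) and 0 with them lower (14.1%), and 3 (Ddit4, Sgk1 and Nfkbia) passed 1.25-fold, beside 0.304% of all genes in that direction. The list was chosen with earlier results of these data known and the threshold after the data were seen, so this is a description only. The median difference was 0.17. Mt1, a metal-binding metallothionein, was listed at 587 and 558 FPKM in B6 and F1r against 471 and 510 in CAST and F1i, a gap of 0.13, whereas Mt2 at 231, 287, 244 and 233 FPKM and the transcription factor Klf9 at 46.9, 54.3, 47.8 and 44.6 FPKM overlapped between the sides. The summed level of the list was 1036, 1070, 890 and 908 FPKM in B6, F1r, CAST and F1i. Such a sum was not particular to this list. Of the 19 lists that are not cell type or region markers, 7 summed higher in B6 and F1r, among them the heat shock and circadian lists, and 1 lower. Fkbp5, a glucocorticoid-induced chaperone partner that is named here after its values were seen, was listed at 8.35 FPKM in B6 and between 11.2 and 13.8 in the other 3 libraries, so members differed among themselves.

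Promoters of these genes were searched because 3 of the list's members passed 1.25-fold. The 250 bases before each annotated start, from the RefSeq table of GRCm38.p6, were searched on both strands for 4 motifs: the glucocorticoid receptor element (AGAACA and its reverse complement, 3 bases apart), the cAMP element TGACGTCA, the E-box CACGTG and the heat shock element (TTC, GAA and TTC, each 2 bases apart). The first was found in 3 of 32851 windows (0.00913%), the second in 1.55%, the third in 6.02% and the fourth in 0.466%. These shares are per window, whereas the counts that follow are per gene, and a gene with several starts had several windows. Of 13 genes searched, made up of list members in the table with Arl4d, Txnip and 2 heat shock genes, 1 held the first, Sgk1, at 1 of its 6 annotated starts. That window, on the plus strand at chr10:21993640-21993889, also held the E-box and is shown with both in capitals.
Sgk1: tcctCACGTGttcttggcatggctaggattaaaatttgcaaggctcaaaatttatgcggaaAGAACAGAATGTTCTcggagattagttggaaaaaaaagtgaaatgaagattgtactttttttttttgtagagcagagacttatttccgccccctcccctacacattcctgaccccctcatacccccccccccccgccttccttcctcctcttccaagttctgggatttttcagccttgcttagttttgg
The cAMP element was found in 1 of the 13 genes, Arl4d, the E-box in 3 (Fkbp5, Per1 and Sgk1) and the heat shock element in 0, and Ddit4, Nfkbia and Txnip held none of the 4 motifs in their windows. A match is only a run of letters in the reference genome and says nothing of whether a factor was bound in these brains.

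Of 14 heat shock genes measured, 7 had a gap with B6 and F1r higher and 1 with them lower, beside 16.1% and 14.1% of all genes. Hspa1b, an inducible member of the Hsp70 family with 68.0% of its words in other genes, was the only member past 1.25-fold and is named after its values were seen: it was listed at 7.78 and 6.99 FPKM in B6 and F1r against 4.93 and 4.53 in CAST and F1i. It passed the level filter only through B6 and F1r. Hspa8, the constitutive member and the most abundant of the list, was listed at 574, 453, 402 and 461 FPKM and overlapped between the sides. Of 22 immediate early genes, which neurons switch on within minutes of activity, 7 were higher in B6 and F1r and 0 lower; Arc, a synaptic capsid-like protein, was listed at 58.8, 53.5, 50.9 and 44.1 FPKM and Egr1, a transcription factor, at 36.01, 33.3, 29.7 and 29.2 FPKM. None of the 22 passed 1.25-fold. Of 18 circadian clock genes, 4 were higher and 0 lower, and both lists are to be read against the same 16.1% higher and 14.1% lower over all genes. The sources used here say nothing of the hour of collection or of handling.

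Imprinted genes, which are read from 1 parental copy, had gaps about as often as all genes compared. Of 15 measured genes of the maternally expressed list, 2 were higher in B6 and F1r and 2 lower, and of 17 of the paternally expressed list, 1 was higher and 5 were lower, beside 16.1% higher and 14.1% lower over all genes. Trappc9, a subunit of a vesicle-tethering complex, was listed at 15.1 and 14.1 FPKM in B6 and F1r against 10.03 and 11.3 in CAST and F1i, a gap of 0.30. Peg13, an imprinted RNA that lies within Trappc9 on the same strand, so that the reads of the 2 may not be told apart, was listed at 56.7, 63.2, 66.3 and 64.4 FPKM in B6, F1r, CAST and F1i, a gap of -0.03. Ube3a was listed at 36.1, 38.9, 39.5 and 33.3 FPKM and Snrpn at 217, 230, 222 and 214 FPKM, and neither separated the sides. No imprinted gene passed 1.25-fold.

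Genes with a 1.25-fold gap were not spread evenly over chromosomes. Chromosome 6 held 11 of 473 compared (2.33%), 5 higher and 6 lower, beside 0.857% over all genes, a share that counts 12 of the 14 mitochondrially encoded genes. They lay from 2210408F21Rik and Chchd3 at one end to Fam234b and Amn1 at the other, and higher and lower genes were interleaved along it. Of those on chromosome 6, Gm44126 and Dynlt1-ps1 had 99.6% and 100% of their words in other genes. Chromosome 13 held 6 of 350 (1.71%). Among them were the nuclear copy Gm4076 and Hist1h3h, AC124744.2, Ftl1-ps1 and Nnt, with 94.2%, 82.4%, 74.1% and 47.8% of their words in other genes.

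Some gaps past 1.5-fold rested on overlapping annotation or on 1 library. The small nucleolar RNA U3 gene Rnu3b4 appeared as 2 records at the same place on chromosome 11 (chr11:87462286-87462501): one was listed at 15.7, 45.1, 0.0298 and 0.0221 FPKM in B6, F1r, CAST and F1i and the other at 0.00690, 7.82, 67.8 and 57.1, so they went opposite ways. Added together they were at 15.7, 52.9, 67.9 and 57.2 FPKM and B6 stood apart. The chromosome 17 RNAs AY036118 and CT010467.1, which carry ribosomal RNA sequence, were listed at 691 and 895 FPKM in CAST against at most 38.1 and 64.1 in the other 3 libraries, so that CAST alone made most of the difference. The processed pseudogenes that are no mitochondrial copies had most of their words in other genes; Rps4x-ps, with 75.8% shared, was listed at 0.851, 1.11, 9.51 and 9.23 FPKM in B6, F1r, CAST and F1i.

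The X chromosome was outside the selection and was set beside it. Of 319 X-linked genes at the same level, 150 had a gap of any size (47%) beside 30.1% on chromosomes 1 to 19, and 7 had a 1.5-fold gap (2.19%) beside 0.226%; no test of this difference was possible. Firre (chrX:50555744-50635321), a long noncoding RNA that helps to organise nuclear architecture, was listed at 10.9 and 14.1 FPKM in B6 and F1r against 2.66 and 2.68 in CAST and F1i, the only X-linked gap past 2-fold (0.313%). Rbm3, a cold-inducible RNA-binding protein, was listed at 56.3 and 45.1 FPKM against 27.2 and 24.1, and Cxx1b at 42.7 and 42.0 against 24.6 and 24.9. Tceal5, a relative of a transcription elongation factor, went the other way at 30.9, 37.0, 55.3 and 56.0 FPKM in B6, F1r, CAST and F1i. Several of the 7 genes past 1.5-fold had words in other genes: 85.1% in Cxx1b, 80.2% in Tmsb15b2, 40.8% in Arxes1, 38.7% in Smim10l2a and 9.75% in Rbm3. The share was 0.41% in Slc25a53 and 0.07% in Firre. Firre and Smim10l2a averaged 2.67 and 4.33 FPKM in CAST and F1i, so they passed the level filter only through B6 and F1r.

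Of the 10 X-linked genes with the largest gaps, 5 lay within 1.005 Mb at chrX:136033367-137038302, a stretch that holds 16 compared genes and was picked out after the values were seen. Arxes1, Tmsb15b2, Slc25a53 and Tceal5 were lower in B6 and F1r, and Rab9b was higher. Arxes1 was listed at 7.94 and 7.61 FPKM in B6 and F1r against 16.3 and 15.8 in CAST and F1i, and 40.8% of its words lay in other genes. On the X chromosome B6 and CAST were 1.5-fold apart at 28 genes (8.78%) and F1r and F1i at 8 (2.51%), and all 7 genes in both lists went the same way. Among 223 protein-coding X-linked genes sharing under 5% of their words, the parents were apart at 5 and the hybrids at 1. That 1 gene was in both lists and went the same way.

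**Figure D5:**
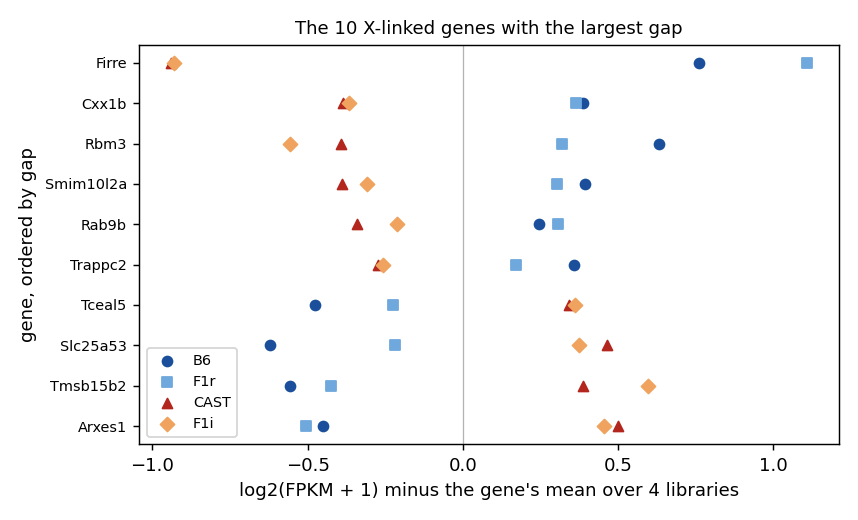
Level of the 10 X-linked genes with the largest gap, as log2(FPKM + 1) minus the gene's mean over the 4 libraries. Firre has the widest separation, with a gap of 1.69, and the sides do not overlap in any row, as the genes were chosen by their gap.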

How the data were processed

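Each of the 4 libraries was 1 pool of 5 mice. The authors deposited FPKM per transcript with gene, locus and length; the submitters' processing notes name bcl2fastq 2.20, Trimmomatic 0.36, HISAT2, Cuffdiff and Cufflinks 2.2.1 with mm9. Per the labels' protocols, libraries were strand-specific. Loci matched GRCm38: GENCODE M21 held 99.58% of the 128603 transcript identifiers, and start and end were the same for 97.2%. How reads with several matches were treated is not given in the sources used here, and FPKM of near-identical genes depend on it. Groups came from the strain labels.

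FPKM of transcripts of at least 200 bases were summed per gene. Differences were taken on log2(FPKM + 1), which understates those of low genes. Sharing is the percent of a gene's 31-base words in GENCODE M21 found in transcripts of another gene. Nuclear copies are genes on other chromosomes that hold words of a mitochondrial gene. Depth relative to B6 was the ratio of the lowest common step of FPKM times length. Python 3.11.15, numpy 2.4.6, pandas 2.3.3 and matplotlib 3.10.9 were used, and the counting was tested on simulated data.

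The sides, the rule for genes and the 35 gene lists were chosen with earlier results of these data known. After values were seen, Trappc9 and Kcnk9 were moved from the paternally to the maternally expressed list and Dirc2, Tasp1 and Dhcr7 were dropped. Named genes were all mitochondrial genes, the 15 largest gaps in each direction, the 20 largest in each direction among protein-coding genes of chromosomes 1 to 19 sharing under 5%, the 10 most abundant copies, the 10 largest X-linked gaps and, per list, at most 4 members by mean FPKM; genes outside it are said to be, and 1 gene that it names is not reported here. Alternatives were a pseudocount of 0.1, other filters on mean FPKM, 2 rescalings, single transcripts, protein-coding genes alone and genes sharing under 5%; the 1.25-fold threshold and leaving out mitochondrial genes with their copies were added after the data were seen.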

Additional observations from a re-analysis of the deposited data

How the results depend on the processing

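No paired analysis was possible because each group is 1 library and the labels carry no replicate numbers; for the same reason no library could be left out. The 1.5-fold gap counts (7 higher and 21 lower) were 13 and 33 at a mean of at least 1 FPKM, 24 and 48 with no filter, 4 and 13 at a mean of at least 20, 25 and 42 for single transcripts, 1 and 0 for genes sharing under 5% of their words, 3 and 9 without mitochondrial genes and copies, and 27 and 49 at 1.25-fold; with protein-coding genes alone 4 were lower. The counts of any gap were 2279 and 1967 at a mean of at least 1, 4234 and 3650 with no filter, 519 and 449 at a mean of at least 20, and 592 lower after rescaling to a common total. In the same order of filters (at least 1, none, at least 20), the parents were 1.5-fold apart at 1614, 2186 and 281 genes, the hybrids at 252, 460 and 28, and both in the same direction at 61, 92 and 18. Single transcripts gave 1397, 253 and 78, genes sharing under 5% gave 402, 20 and 3, and protein-coding genes alone gave 37 for the hybrids and 12 for both; without mitochondrial genes and copies 15 went the same way. These filters change how many genes are compared. Among nuclear list members, 1 was lower at a pseudocount of 0.1, and 9 X-linked genes were higher at a mean of at least 1. Of 591 recomputed gaps of named genes, 584 stayed on their side of 1.5-fold and none reversed; the 7 that crossed it were Hist1h3h (0.58 with median-ratio scaling), Gm42730 (0.65 and 0.59), Gm1043 (0.61), Mat2a (0.59), 2210408F21Rik (0.59) and mt-Co1 summed with its copies (0.04). The sums among these recomputed gaps added only copies with at least 20% of a gene's words. By that rule mt-Nd2 had no copy to add, so its fall to 0.13 with Gm13339 is not among the 7. Without counts in the tables, gaps of low genes have no counting error to be read against.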
